A study of Mus musculus with 6 samples.

Results

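Tnnt2, the cardiac isoform of troponin T, and 9 related genes of the actin filament were followed in mouse embryoid bodies kept with or without intermittent compressive force (ICF). The 10 genes, out of 50686 identifiers in the count tables and 16729 genes with enough reads for testing, are 3 troponins T (Tnnt2, Tnnt1, Tnnt3), 3 muscle actins (Acta1, Acta2, Actc1), the actin-binding proteins Tagln and Cnn1, and the tropomyosins Tpm1 and Tpm2. All 10 were found and all 10 passed the filter on low counts. The genes were chosen by name with their ICF and control values in view, so these differences are given as a description, and whether a gene passed the threshold is stated without its p-value.

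The cells were induced pluripotent stem cells (iPSCs) reprogrammed from mouse gingival fibroblasts and grown on SNL feeder cells, which were removed with trypsin before embryoid bodies were formed. Both groups received all-trans retinoic acid, were attached to gelatin-coated plates and were then held in serum-free medium for 24 h. The ICF group (3 samples) was loaded in this medium with 1.5 g per square centimetre at 0.23 Hz, and the control group (3 samples) was not loaded. The sample labels number the donors 1 to 3 in each group, which serves here as the replicate number; the methods speak of independent experiments but not of animals, so the tests measure the spread between these samples, which may be technical.

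In striated muscle, troponin T ties the troponin complex to tropomyosin on the actin filament, and calcium binding to troponin C lets myosin reach actin. Smooth muscle has no troponin; there alpha-actin (Acta2), transgelin (Tagln) and calponin (Cnn1) are the usual markers, and they also rise in fibroblasts that become contractile. Many of these genes carry binding sites for serum response factor, which responds to the state of the actin cytoskeleton, and Acta2 and Tagln appear for a time in the embryonic heart before they are restricted to smooth muscle.

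The gene counts summed to 28711166 in the shallowest sample and to 34194413 in the deepest. The counts of ICF replicate 3 stood apart: 89.0% of those above 0 were divisible by 4, where the other 5 samples had 20.3% to 21.5%, and 8 of its 10 counts for the genes described here were such multiples. ICF replicate 3 also had 20802 genes with a count, against 24340 to 24889 in the other samples. Whether its sum counts independent reads was not tested. This library therefore resolves low counts less finely, and calls that are lost without it are given as such. The samples were bulk RNA, so more cells of a type and more RNA per cell cannot be told apart. Levels are given as CPM, which are counts over the library size after TMM normalisation. Pluripotency genes were abundant in all samples, and Pou5f1 averaged 841 ± 57.2 CPM without load (SD, n = 3) and 817 ± 70.4 CPM with it (SD, n = 3). Of the 6 regulators of skeletal muscle listed, 1, Pax3, had enough reads for testing (0.696 ± 0.0799 CPM in the control, SD, n = 3). The cardiac regulator Gata4 stood at 173 ± 7.25 CPM (SD, n = 3) in the control, and Gata6 and Hand1 averaged 96.2 and 41.9 CPM. The control means of the other tested genes of that list lay between 0.767 (Hand2) and 3.74 CPM (Tbx20), with Nkx2-5 at 0.873. Tbx5 and the atrial peptide gene Nppa did not exceed 0.138 and 0.103 CPM in any sample.

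Tnnt2 was the 1 gene of the 10 that rose past the threshold with ICF, to about 3.04 times its control level. It lies on the plus strand of chromosome 1 (GRCm38, 135836354 to 135852260). Its reads numbered 81, 66 and 43 in control replicates 1 to 3 and 249, 190 and 188 in ICF replicates 1 to 3. The lowest ICF sample thus lay far above the highest control sample, and the groups did not overlap.

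In CPM, Tnnt2 stood at 2.77, 2.11 and 1.50 in the control and at 7.17, 5.75 and 6.49 under ICF. The mean was 2.13 ± 0.638 (SD, n = 3) against 6.47 ± 0.710 (SD, n = 3), a log2 fold change of 1.60 (standard error 0.27). Within samples of the same number the log2 difference was 1.37, 1.44 and 2.10. Replicate 3 had the widest difference, with its control sample the lowest of the 6, while ICF replicate 3 lay between the other ICF samples.

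The rise of Tnnt2 was called under all 14 other settings tried, including the 6 that each left out 1 sample, and its log2 fold change stayed between 1.41 and 1.84 when samples were left out. Without replicate 3 of both groups it was 1.41. Tnnt2 had the lowest mean level of the 10 genes per kilobase of exon in the control, overlapping with that of Actc1. This place depends on the length used, 7752 bases for all exons of Tnnt2 together. In CPM without a length, the control means of Actc1 (0.450) and Acta1 (1.55) lay below that of Tnnt2 (2.13). At such counts the values are coarse, and no stretch of 75 bases in its longest transcript of 3330 bases occurs in a transcript of another gene.

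Of all genes tested, 3.47% were called higher and 4.38% lower with ICF by edgeR's quasi-likelihood test, and of the 10 genes 1 was called higher and 0 lower. The median log2 fold change was -0.05 over the 10 genes and 0.00 over all genes tested. Every ICF sample lay above every control sample in 1 gene (Tnnt2) and below in 1 gene (Cnn1), against 15.6% and 15.7% of all genes, and the groups overlapped in the other 8.

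**Figure D1:**
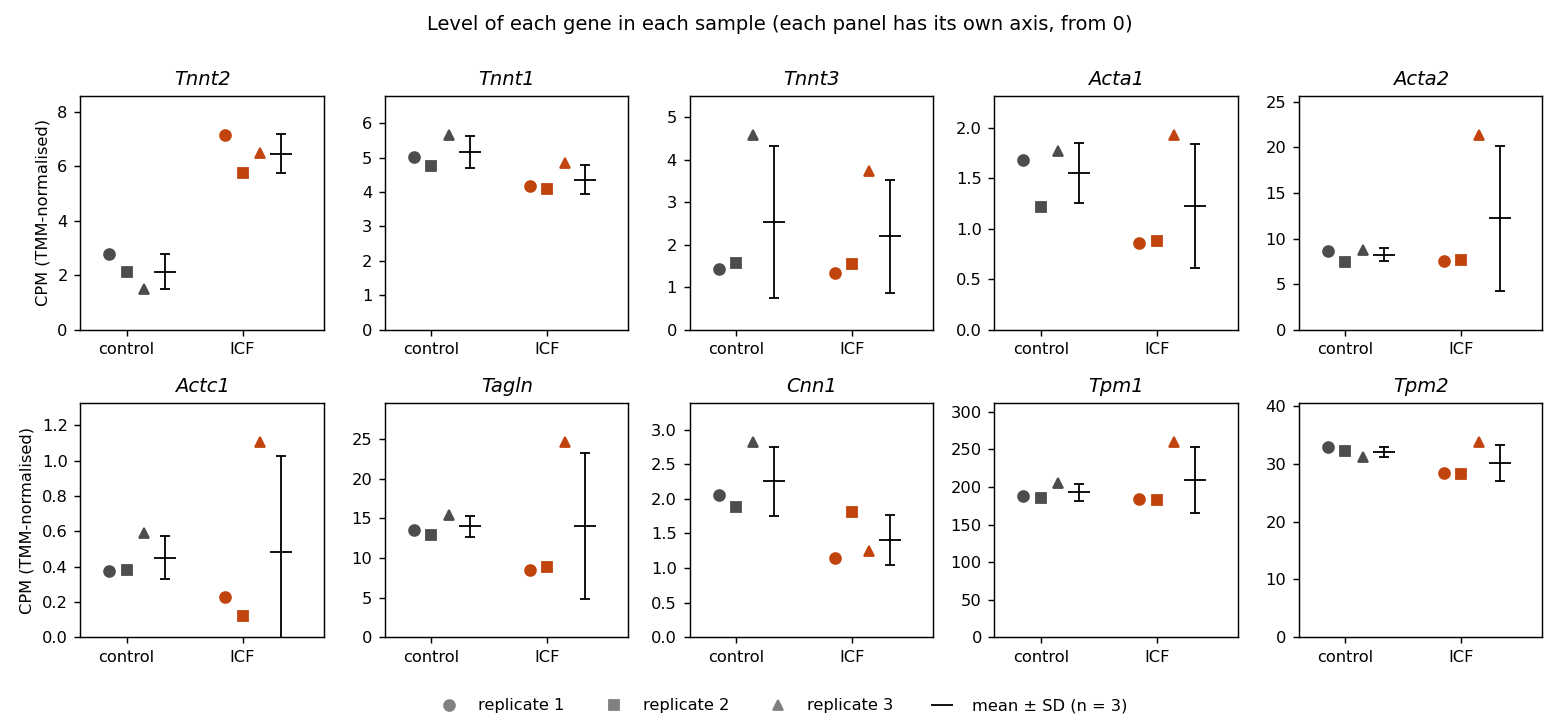
The plots show the level of each of the 10 genes in CPM (vertical axis, linear and starting at 0, with its own scale in each panel) in the 3 control (grey) and 3 ICF (orange) samples, with circles, squares and triangles for replicates 1, 2 and 3 and a line with a bar for the mean ± SD (n = 3). Tnnt2 has separate groups (1.50 to 2.77 against 5.75 to 7.17 CPM), while in Acta2, Tagln and Actc1 the triangle of ICF replicate 3 stands far above all other samples; the lower bar of Actc1 under ICF runs below 0 and is not drawn there.

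The other troponin T genes, Tnnt1 and Tnnt3, were not called. Tnnt1, the slow skeletal isoform, lies on the minus strand of chromosome 7 (4504570 to 4516382) and had 147, 149 and 163 reads in the control and 145, 135 and 140 under ICF. Its level of 5.15 ± 0.468 CPM without load (SD, n = 3) and 4.36 ± 0.408 under ICF (SD, n = 3) gave a log2 fold change of -0.24 (standard error 0.11), which was not called. All 3 same-numbered differences were small and negative, at -0.27, -0.22 and -0.23, although the ranges of the groups overlapped.

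Tnnt3, the fast skeletal isoform on the plus strand of chromosome 7 (142498836 to 142516009), differed by replicate number and was not called for ICF. Its reads were 42, 49 and 132 in control replicates 1 to 3 and 46, 51 and 108 in ICF replicates 1 to 3. Replicate 3 thus stood 3.06 times above the mean of the other control samples and 2.60 times above that of the other ICF samples. Between the groups the log2 fold change was -0.21 (standard error 0.71).

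The effect of the replicate number, which the choice of genes did not use, was tested in a fit with group and number. For Tnnt3 the adjusted p was 3.77e-06 with all samples and 6.00e-09 without ICF replicate 3 (edgeR). It was also the 1 gene of the 10 that DESeq2 called for this effect.

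Each troponin T gene has a troponin I gene near it on the chromosome, and these partners were level or too low to test. Tnni1, which encodes slow skeletal troponin I 25.4 kb from Tnnt2, stood at 0.684, 0.511 and 0.487 CPM in the control and 0.461, 0.393 and 0.552 under ICF (log2 fold change -0.26, standard error 0.20, adjusted p = 0.642, edgeR). Tnni3, which encodes cardiac troponin I 1.92 kb from Tnnt1, stood at 4.70 ± 0.516 CPM in the control and 4.10 ± 0.159 under ICF (SD, n = 3; log2 fold change -0.19, adjusted p = 0.430, edgeR). Tnni2, the fast skeletal partner of Tnnt3, stayed between 0.224 and 0.552 CPM and did not pass the filter.

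The gene for cardiac and slow skeletal troponin C, Tnnc1, stood between 0.543 and 0.992 CPM in the control and between 0.893 and 1.06 under ICF (adjusted p = 0.519, edgeR). Among the troponin genes Tnnt2 was thus the 1 gene called in this comparison. On the same chromosome, 67.2 kb from Tnnt2, Phlda3 rose from 39.7 ± 2.02 to 79.8 ± 9.69 CPM (SD, n = 3; log2 fold change 1.01, standard error 0.11, adjusted p = 0.000832, edgeR). Phlda3 encodes a pleckstrin homology domain protein and is a known p53 target, and it was singled out after its values were seen. Lad1 lies between them, 3.01 kb from Tnnt2, and had a log2 fold change of 0.26 with an adjusted p of 0.182 (edgeR).

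The genes whose log2 CPM over the 6 samples was most like that of Tnnt2 were Ahr (Pearson r = 0.992), Cmtm3 (0.992), Ccdc134 (0.991), Cbs (0.991) and Zfp369 (0.989), among 14175 genes with a mean of at least 1 CPM. The 6 points are in 2 groups that share the load and the library scaling, so these values describe a common separation of the groups. The log2 fold changes of the 5 genes were smaller than that of Tnnt2, from 0.32 for Cmtm3 to 0.61 for Zfp369, and 4 of the 5 passed the threshold, Cmtm3 just under it (adjusted p = 0.04998, edgeR), while Ahr did not (0.109).

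The muscle actins did not share the rise of Tnnt2. Acta2, the smooth muscle alpha-actin on the minus strand of chromosome 19 (34241090 to 34255590), had 251, 233 and 250 reads in the control and 261, 254 and 620 under ICF. In CPM this was 8.59, 7.44 and 8.70 in the control and 7.51, 7.69 and 21.4 under ICF. ICF replicates 1 and 2 thus lay within the control range, and ICF replicate 3 stood alone at 2.82 times their mean.

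Across all samples the log2 fold change of Acta2 was 0.56 (standard error 0.50) and was not called. With the replicate number as a block it was 0.43 and called higher by edgeR, whereas DESeq2 with the same block gave 0.38 and did not call it. Without ICF replicate 3 it was -0.11 and not called, so its sign rests on that library.

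Actc1, the cardiac alpha-actin on the minus strand of chromosome 2 (114047282 to 114053548), was near the floor of detection. Its reads were 11, 12 and 17 in the control and 8, 4 and 32 under ICF. ICF replicate 3 was again the highest sample, at 6.29 times the mean of the other ICF samples, and ICF replicates 1 and 2 were the lowest of the 6. The log2 fold change of 0.06 (standard error 0.93) turned to -1.32 without ICF replicate 3 and was called in neither case.

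Acta1, the skeletal alpha-actin on the minus strand of chromosome 8 (123891769 to 123894751), had 49, 38 and 51 reads in the control and 30, 29 and 56 under ICF. Replicates 1 and 2 were lower with ICF, by -0.95 and -0.46 on the log2 scale, and replicate 3 was slightly higher, by 0.12. The log2 fold change of -0.36 (standard error 0.42) was not called, and without replicate 3 of both groups it was -0.72 and was called lower. Of the 75-base stretches of its longest transcript 0.437% also occur in Gm47692 or Actb, which leaves its counts nearly free of reads shared with the abundant beta-actin.

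Transgelin and calponin, the actin-binding partners that usually accompany Acta2, differed from each other in their pattern. Tagln, on the minus strand of chromosome 9 (45929619 to 45936058), had 396, 404 and 444 reads in the control and 295, 292 and 712 under ICF. ICF replicates 1 and 2, at 8.49 and 8.84 CPM, lay below all control samples (12.9 to 15.4 CPM), and ICF replicate 3, at 24.6 CPM, lay above them. The log2 fold change over all samples was -0.01 (standard error 0.51), and without ICF replicate 3 Tagln was called lower with -0.68.

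The exons of Tagln overlap 2 genes on the opposite strand, Gm48529 over 62.4% of its exon bases and Pcsk7 over 5.43%. The library kept the strand, but the strand setting of the counting is not given in the sources used here. Reads of the overlap could therefore have been left out or assigned to the antisense gene, which was not tested. Over all genes, 4.09% to 6.24% of the total tallied by the counting had no feature and 0.898% to 0.960% was ambiguous. Gm48529 itself had 24 to 59 reads per sample, and its lowest count was in ICF replicate 3.

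Cnn1, the smooth muscle calponin on the plus strand of chromosome 9 (22099216 to 22109630), had every ICF sample below every control sample in CPM. Its reads were 60, 59 and 81 in the control and 40, 60 and 36 under ICF, which is 2.25 ± 0.497 CPM (SD, n = 3) against 1.40 ± 0.360 (SD, n = 3). The highest ICF sample, replicate 2 at 1.82 CPM, lay just under the lowest control sample at 1.88 CPM. The log2 fold change of -0.68 (standard error 0.27) was not called without a block and was called lower by edgeR with the replicate number as a block (-0.67), but not by DESeq2 with the same block (-0.69). ICF replicate 3 did not stand out in this gene.

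The tropomyosins were by far the most abundant of the 10 genes and were nearly level. Tpm1, on the minus strand of chromosome 9 (67022590 to 67049406), encodes muscle and non-muscle isoforms of alpha-tropomyosin, which these counts do not separate. It had 188, 185 and 206 CPM in the control and 185, 183 and 260 under ICF, so that replicates 1 and 2 differed between the groups by -0.03 and -0.01 on the log2 scale and ICF replicate 3 stood higher. The log2 fold change was 0.12 (standard error 0.17), and it was -0.06 without ICF replicate 3.

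Tpm2, the beta-tropomyosin on the minus strand of chromosome 4 (43514711 to 43523765), had 32.8, 32.3 and 31.2 CPM in the control and 28.4, 28.3 and 33.7 under ICF. The log2 fold change of -0.09 (standard error 0.09) was not called. Without replicate 3 of both groups it was -0.20 and was called lower.

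**Figure D2:**
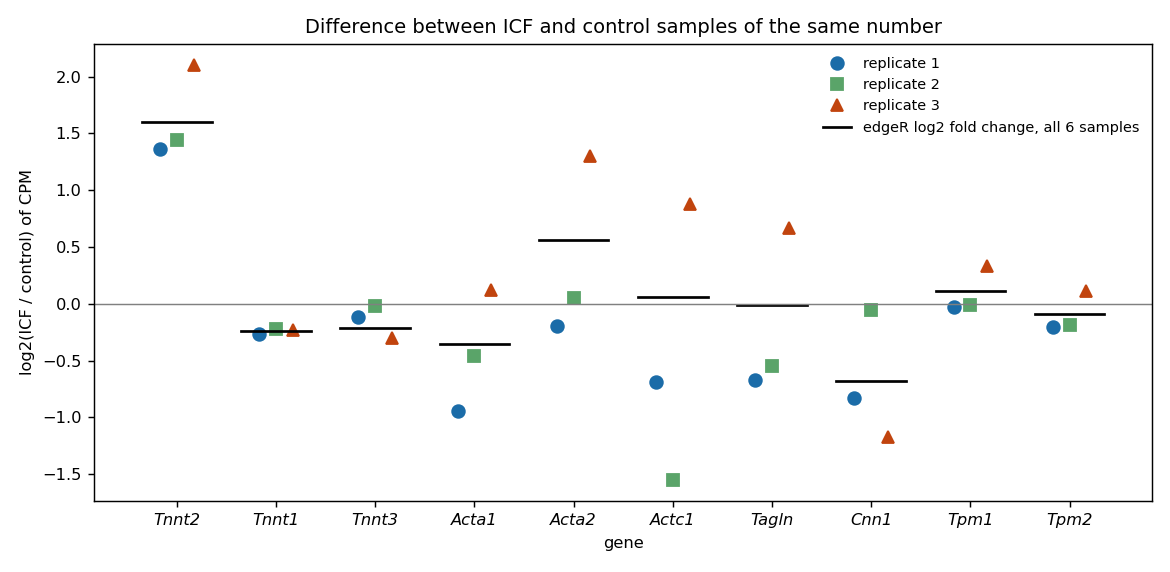
Points show the log2 ratio of CPM between the ICF and the control sample of the same number for each gene (horizontal axis), with circles, squares and triangles for replicates 1, 2 and 3, and black lines show edgeR's log2 fold change over all 6 samples. Tnnt2 is positive in all 3 pairs (1.37, 1.44 and 2.10) and Tnnt1, Tnnt3 and Cnn1 are negative in all 3, whereas Acta1, Actc1, Tagln, Tpm1 and Tpm2 are negative in replicates 1 and 2 and positive in replicate 3.

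When the level per kilobase of exon was compared in the control, the order was Tpm1 (29.7 CPM per kilobase), Tpm2 (11.0), Tagln (7.03), Acta2 (3.75), Tnnt1 (2.34), Tnnt3 (1.60), Acta1 (1.01), Cnn1 (0.823), Actc1 (0.278) and Tnnt2 (0.274). The values of neighbours overlapped between Tnnt1 and Tnnt3, Tnnt3 and Acta1, Acta1 and Cnn1, and Actc1 and Tnnt2, and these neighbours did not differ beyond their spread. With ICF the mean level of Tnnt2 per kilobase was 0.835, above that of Acta1 (0.797), Cnn1 (0.513) and Actc1 (0.300). The ICF samples of Tnnt2 and Acta1 overlapped on this scale. Both this overlap and the last place of Tnnt2 in the control depend on the exon length used. For Tnnt2 that length was 7752 bases, against 3330 in its longest transcript. The transcripts related to smooth muscle and the tropomyosins thus made up most of these transcripts in either group.

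Replicate 3 of the ICF group carried most of the spread in these genes. It stood at least 2-fold above the mean of ICF replicates 1 and 2 in 5 of the 10 genes (Tnnt3, Acta1, Acta2, Actc1 and Tagln), against 2.46% of all genes tested. It was the highest of the ICF samples in 8 of the 10, against 42.0% of all genes, and the highest of all 6 samples in 6, against 27.7%. Control replicate 3 stood at least 2-fold above its companions in 1 gene (Tnnt3), against 1.82% of all genes. This library was singled out after its values were seen.

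In the test of the replicate number 5 of the 10 genes were called, against 19.0% of all genes. Beside Tnnt3 they were Tagln (adjusted p = 8.98e-05, edgeR), Acta2 (0.000300), Tpm1 (0.000577) and Actc1 (0.0225). Actc1 was no longer called with the counts of ICF replicate 3 divided by 4, or without ICF replicate 1 or ICF replicate 2. Without ICF replicate 3 the calls were 2, Tnnt3 and Tnnt2 (adjusted p = 0.0328, edgeR), against 9.62% of all genes, so that 4 of the 5 rested on that library. For Tnnt2, replicate 1 was above replicate 2 in both groups, and control replicate 3 was the lowest sample.

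Other smooth muscle genes were mixed in ICF replicate 3. Of 23 listed genes, 8 were highest of all 6 samples there, against 27.7% of all genes tested. The 8 were Myh11, Actg2, Mylk, Cald1, Lmod1, Synpo2, Csrp1 and Ppp1r14a. At least 2-fold above the other ICF samples stood 2, both too low for testing. They were Myh11, the smooth muscle myosin (0.690 CPM against 0.259 and 0.212), and Actg2, the enteric actin (0.414 against 0.0576 and 0.0908). Among the 21 tested genes 0 reached 2-fold, against 2.46% of all genes, and Cald1 (caldesmon) stood at 143 CPM against 95.2 and 93.3. The median ratio over these 21 was 1.05, against 0.996 for all genes and 1.82 for the 10 genes. Single ratios ran from 0.545 (Tagln3) and 0.685 (Pdlim3) to 1.51 (Cald1) and 1.84 (Lmod1). The summed level of the list was 2204 CPM in ICF replicate 3 and 2227 to 2371 CPM in the other samples. Abundant genes weigh most in this sum, with Flna at 414, Actn1 at 279 and Cnn3 at 249 CPM in ICF replicate 3. These genes were named after their values were seen.

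Marker lists of vessel cells were mixed in the same library. The summed level of 6 endothelial markers was 110 CPM in ICF replicate 3, against 77.5 and 79.3 in the other ICF samples and 75.6 to 91.5 in the control, and most of the difference was in Pecam1 (60.2 CPM against 31.6 and 31.4), while Tie1 was lower there (2.21 against 3.92 and 4.84). The sum of 6 pericyte markers was 69.7 CPM, against 58.0 and 60.5 and a control range of 51.9 to 53.0. Notch3 alone made up 61.6 CPM of it, Rgs5 and Cspg4 were the lowest of the ICF samples there, and the median ratio over the 4 tested pericyte genes was 0.905. No marker of either list was without reads in all samples. The sum of 12 mesenchymal and fibroblast markers was lowest in this library, at 1022 CPM against 1045 to 1291 in the other samples. Fn1 alone made up 570 CPM of it, against 669 to 855 CPM in the other samples. In 4 of the 12 (Col3a1, Postn, Prrx1 and Vim) this library was the highest of all 6 samples, against 27.7% of all genes. The part of these markers in the levels of Acta2, Tagln and Actc1 was not tested.

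**Figure D3:**
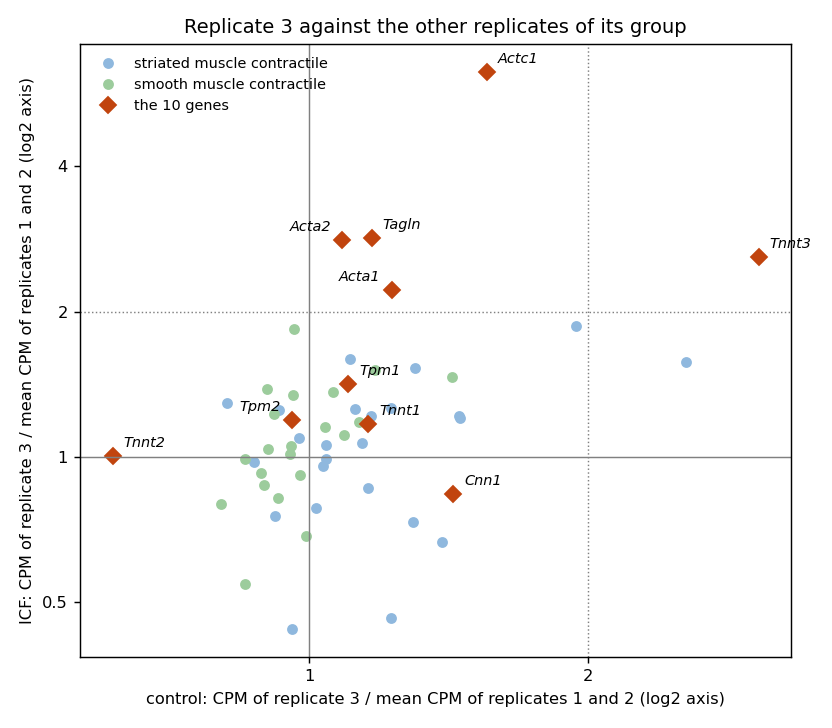
Each point is a gene, placed by the CPM of replicate 3 divided by the mean CPM of replicates 1 and 2 in the control (horizontal, log2 axis) and in the ICF group (vertical, log2 axis), with diamonds for the 10 genes, blue for tested striated muscle genes and green for tested smooth muscle genes, and dotted lines at 2-fold. Actc1, Tagln, Acta2 and Acta1 lie above the dotted line with ICF only (2.22 to 6.29), Tnnt3 lies above it in both groups (3.06 and 2.60), and Tnnt2 lies at 1.00 under ICF and 0.613 in the control.

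With the replicate number as a block, edgeR called 2 of the 10 genes higher (Tnnt2 and Acta2), against 14.6% of all genes, and 1 lower (Cnn1), against 15.3%. DESeq2 with the same block called 1 of the 10, Tnnt2. Without ICF replicate 3, 1 was called higher (Tnnt2) and 1 lower (Tagln), against 3.73% and 4.52%. Without replicate 3 of both groups, 1 was called higher (Tnnt2), against 14.6%, and 3 lower (Acta1, Tagln and Tpm2), against 15.6% of all genes. In all of these settings Tnnt2 was the gene with the largest change among those called.

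The promoters of Tnnt2 and Acta1 are shown because these genes went opposite ways in replicates 1 and 2, and because the windows of both, the 250 bases before the RefSeq start (GRCm38.p6), hold no annotated exon. Capitals mark matches to the CArG box (the site of serum response factor, CC, 6 bases of A or T, then GG), to a CArG-like site with 1 central base outside A and T, or to the MCAT element CATTCC (the site of TEAD factors). The windows are chr1:135836084-135836333 on the plus strand and chr8:123894776-123895025 on the minus strand, both written 5′ to 3′.
Tnnt2 promoter: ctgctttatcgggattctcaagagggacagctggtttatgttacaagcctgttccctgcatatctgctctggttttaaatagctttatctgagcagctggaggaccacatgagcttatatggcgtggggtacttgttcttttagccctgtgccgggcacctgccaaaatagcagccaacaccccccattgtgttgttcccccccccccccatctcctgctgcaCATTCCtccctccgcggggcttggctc
Acta1 promoter: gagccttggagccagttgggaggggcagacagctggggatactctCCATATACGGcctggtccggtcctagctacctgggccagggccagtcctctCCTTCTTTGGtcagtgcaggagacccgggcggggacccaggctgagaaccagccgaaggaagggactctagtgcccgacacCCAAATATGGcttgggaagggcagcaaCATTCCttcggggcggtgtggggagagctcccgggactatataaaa

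The Tnnt2 window held 1 MCAT element, from 27 to 22 bases before the start, and 0 CArG or CArG-like sites. The Acta1 window held 1 CArG box (CCAAATATGG, 73 to 64 bases before the start), 2 CArG-like sites and 1 MCAT element. Of all 32851 windows, 1.47% held a CArG box, 7.24% a CArG-like site and 12.6% an MCAT element, searched on both strands.

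The table gave windows for 8 of the 10 genes, 9 windows in all. Actc1 held 1 CArG box (CCAAATAAGG) and 3 CArG-like sites, Acta2 held 2 CArG-like sites (CCCTATATGG and CCTTGTTTGG) and 1 MCAT element, and Tpm1 held 1 MCAT element. No CArG box or CArG-like site was found in the windows of Tnnt1, Cnn1, Tpm1, Tpm2 or the second window of Tnnt2, which says only that these letters are not there. The MEF2 site, found in 2.92% of all windows, was in none of the 9. A match describes the sequence and does not show that a factor binds.

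Several other genes of striated muscle fell while Tnnt2 rose. Of 40 listed genes 24 had enough reads for testing, and of these 0 were called higher and 5 lower with ICF. The shares of all genes were 3.47% and 4.38%, and the median log2 fold change of the list was -0.24. Myl7, the atrial regulatory light chain, fell from 0.944 ± 0.107 to 0.365 ± 0.0677 CPM (SD, n = 3; log2 fold change -1.37, adjusted p = 0.0248, edgeR). It had only 10 to 30 reads per sample and was not called by DESeq2. Casq1 and Casq2, the calcium-binding calsequestrins of the sarcoplasmic reticulum, had log2 fold changes of -1.16 and -1.06 (adjusted p = 0.0188 and 0.0120, edgeR).

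Ttn, which encodes the giant spring protein titin, fell from 25.5 ± 5.84 to 16.6 ± 1.91 CPM (SD, n = 3; log2 fold change -0.63, adjusted p = 0.0474, edgeR). Actn3, a Z-disc alpha-actinin of fast fibres, fell from 24.4 ± 1.63 to 16.2 ± 2.52 CPM (SD, n = 3; log2 fold change -0.59, adjusted p = 0.0225, edgeR). In all 5 genes every ICF sample lay below every control sample. The most abundant gene of the list was the calcium pump Atp2a2, with 337 ± 10.4 CPM in the control and 386 ± 9.87 under ICF (SD, n = 3; adjusted p = 0.0681, edgeR). Every ICF sample of Atp2a2 lay above every control sample, and it was called higher by DESeq2 (adjusted p = 0.0187) and by edgeR with the replicate block (0.00260) or without replicate 3 of both groups (0.00107). With the block the list had 1 call higher, Atp2a2, and 7 lower, against 14.6% and 15.3% of all genes. Without replicate 3 of both groups it had 2 higher, Atp2a2 and Nebl (nebulette), and 7 lower, against 14.6% and 15.6%.

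Over the 21 tested smooth muscle genes the median log2 fold change was -0.06. With the replicate block 3 were called higher and 5 lower, against 14.6% and 15.3% of all genes. Without it 0 were called higher and 1 lower, against 3.47% and 4.38%. The 1 gene was Pdlim3, an alpha-actinin partner at the Z-disc and on stress fibres, which fell from 5.14 ± 0.0820 to 2.71 ± 0.735 CPM (SD, n = 3; log2 fold change -0.92, adjusted p = 0.0256, edgeR). Filamin A (Flna), the most abundant of the list, had 470 ± 9.55 CPM in the control and 439 ± 22.2 under ICF (SD, n = 3; adjusted p = 0.335, edgeR).

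Among 13 tested genes for other actin and tropomyosin isoforms and filament proteins, the replicate block gave 3 calls higher and 2 lower. The shares of all genes with the block were 14.6% and 15.3%. Without it 1 was called higher and 0 lower, against 3.47% and 4.38%. The 1 gene was Tmod2, a tropomodulin that caps the pointed ends of actin filaments, which rose from 5.94 ± 1.04 to 10.03 ± 1.22 CPM (SD, n = 3; log2 fold change 0.76, adjusted p = 0.0246, edgeR). Beta-actin (Actb), the most abundant, had 2655 ± 141 CPM in the control and 2401 ± 85.8 under ICF (SD, n = 3; adjusted p = 0.184, edgeR).

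Of 12 tested regulators of the SRF-MRTF, TEAD and MEF2 families, 0 were called in either direction without a block. Srf itself stood at 82.1 ± 5.82 CPM in the control and 69.7 ± 5.09 under ICF (SD, n = 3; log2 fold change -0.24, adjusted p = 0.0993, edgeR). With the replicate block Srf was called lower (adjusted p = 0.00135, edgeR), with all 3 same-numbered differences negative (-0.36, -0.16 and -0.19), and Tead4 was called higher (log2 fold change 0.21, adjusted p = 0.0245, edgeR). Tead1, the most abundant, had 220 ± 13.3 and 217 ± 21.4 CPM (SD, n = 3; adjusted p = 0.889, edgeR). Of 8 tested cardiac regulators edgeR called 0 without the block, with all samples, and 1 higher with it, Gata6. DESeq2 called Gata6 higher without a block (adjusted p = 0.0336). The block called 14.6% of all genes higher and 15.3% lower.

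These 7 calls among the other contractile genes depended on which samples entered. Without control replicate 2 or without ICF replicate 1, 0 of the 7 were called, without control replicate 1 only Casq2 was, and without ICF replicate 2 there were 4 (Actn3, Casq1, Casq2 and Pdlim3). All 7 were called by edgeR without ICF replicate 3 and with the replicate block. Myl7 was not called by DESeq2 with or without the block, nor by edgeR without control replicate 3. With edgeR's block the lists together had 23 calls, where 14.6% of all genes were called higher and 15.3% lower. Tnnt2 was called in each of these settings. It was chosen with its values in view and the settings share samples, so this describes it and is no separate support.

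**Figure D4:**
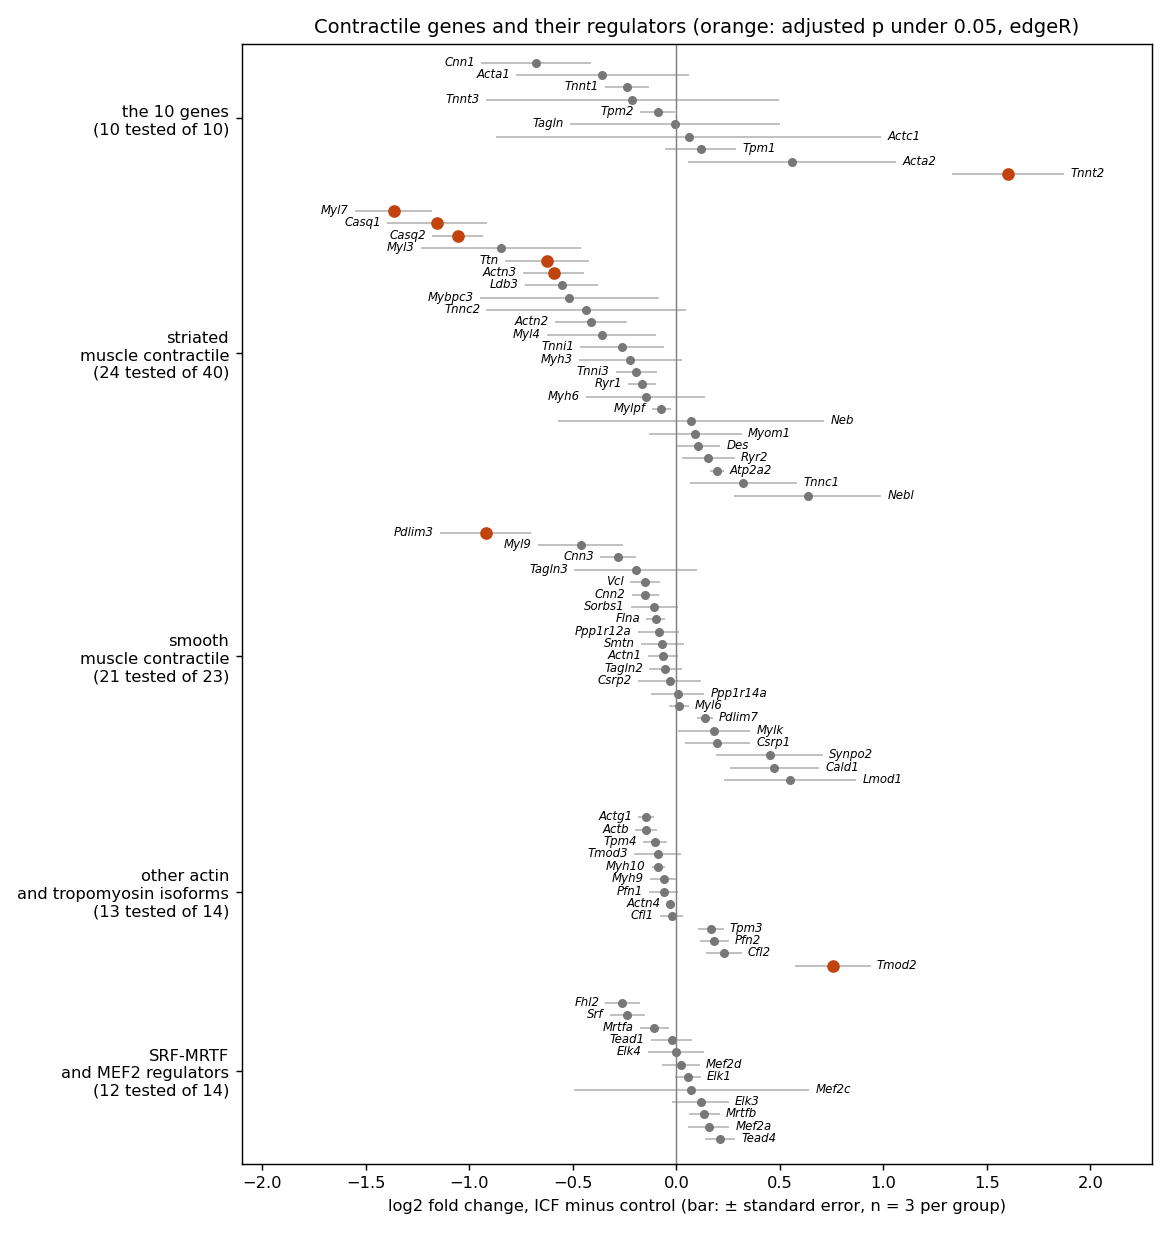
Each point is the log2 fold change of a tested gene (ICF minus control, horizontal axis) with its standard error as a bar (n = 3 per group), grouped by list on the vertical axis and coloured orange where edgeR's adjusted p was under 0.05. Tnnt2, at 1.60, is the highest point of the plot, and the 5 called genes of the striated muscle list lie between -1.37 and -0.59.

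Markers of the cell types that these embryoid bodies could hold moved in small numbers. The shares of all genes called were 3.47% higher and 4.38% lower. Of 11 tested mesenchymal and fibroblast genes, 2 rose, Col1a1 (log2 fold change 0.75, adjusted p = 0.0216, edgeR) and Col3a1 (0.73, adjusted p = 0.0482). Of 4 tested pericyte genes Cspg4 rose (0.85, adjusted p = 0.0168, edgeR), and of 10 pluripotency genes Tdgf1 fell (-0.81, adjusted p = 0.00283, edgeR). Of 6 endoderm genes Sox17 fell (-0.34, adjusted p = 0.0445, edgeR), and 0 of 5 endothelial and 0 of 6 neuroectoderm genes were called. Tdgf1 was called in each setting tried. Without ICF replicate 3 Col3a1 (0.57, adjusted p = 0.0696) and Sox17 (-0.28, adjusted p = 0.0705) were no longer called by edgeR. Leaving out 1 other sample kept 1 to 3 of the 5 calls: Tdgf1 without ICF replicate 1 or control replicate 1, Tdgf1 and Sox17 without ICF replicate 2, Tdgf1 and Col1a1 without control replicate 2, and Tdgf1, Col1a1 and Cspg4 without control replicate 3. DESeq2 with the replicate block did not call Col3a1. With edgeR's block, which called 14.6% of all genes higher and 15.3% lower, the mesenchymal list had 4 calls higher and 1 lower. The calls were 2 and 0 in the pericyte list, 0 and 4 in the pluripotency list and 1 and 1 in the endothelial list. In both the neuroectoderm and the endoderm list they were 2 and 1. The part of these markers in the level of Tnnt2 was not tested.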

How the data were processed

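RNA sequencing was done on 3 ICF and 3 control samples. The deposited values are raw counts per gene, made by the authors with Trimmomatic (read filtering), HISAT2 (mapping) and HTSeq (counting); the strand setting of the counting is not given in the sources used here. Reads aligned to several places are left out by this counting and made up 29.5% to 31.3% of the total it tallied. Whether each such read was tallied only once is not given, so the share of reads may be lower. The submitters' processing notes name bcl2fastq 2.19 and list both the hg38 and the GRCm38 build; all gene identifiers here are mouse, and 50462 of 50686 were found in GENCODE M21 of GRCm38.

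From these counts, ICF and control were compared with edgeR 4.0.16 in R 4.3.3 (quasi-likelihood test, TMM, filterByExpr by group), with Benjamini-Hochberg adjustment over all 16729 genes tested and a threshold of 0.05. Standard errors were taken from the spread of log2 CPM within the groups, with 0.5 added to each count, and not from the fit. The replicate number was tested in a fit with group and number. The genes and lists were chosen with earlier results of these data known. Named genes were the 10 genes, of each list those past the threshold (at most 6) and the most abundant one, the 5 most like Tnnt2, and genes sharing 75-base stretches. Other genes, among them neighbours and partners of the troponins T, some regulators and the genes high in ICF replicate 3, were chosen after their values were seen.

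The donor numbers served as a block only in alternatives and in the test of the replicate number. Residuals about the group means were correlated over genes between samples of 1 number (r = 0.129, 0.175 and 0.322 for numbers 1 to 3, against -0.306 to 0.230 between other samples). Genes are not independent replicates. Control replicate 1 with ICF replicate 2 had 0.230, and control replicate 2 with ICF replicate 1 had 0.147. These values thus set number 3 apart but do not show that numbers 1 and 2 pair the samples. Alternatives were DESeq2 1.42.0, RLE size factors, filters of at least 1 count in any sample or 10 in every sample, the replicate block in both tools, samples left out, and the counts of ICF replicate 3 divided by 4. Promoter windows are from RefSeq.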

Additional observations from a re-analysis of the deposited data

How the results depend on the processing

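Tnnt2 kept its direction and its call under all 14 alternatives. Over all genes edgeR called 1313, DESeq2 2052, edgeR with the replicate block 5006 and DESeq2 with the block 3119, and 300 to 5093 were called when samples were left out. Of the 10 genes edgeR called 3 with the block, DESeq2 with the block 1, and 1 to 4 were called when samples were left out; of the other contractile lists, with 7 calls, the block gave 23, DESeq2 with the block 14, and the left-out samples 0 to 25. The pairing by replicate number changed the call of Acta2 (0.43) and Cnn1 (-0.67) in edgeR and of no other of the 10 genes, and in DESeq2 it changed none. The replicate number was called in 1785 genes with DESeq2, against 3176 with edgeR, and in 1642 to 3555 when samples were left out; of the 10 genes, 1 (DESeq2) and 2 to 6 (left-out samples) against 5.

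The sign turned in 5 genes, none of them called in the main comparison. Actc1 was -0.12 with the replicate block, -0.38 with DESeq2 and the block and -0.66 with the counts of ICF replicate 3 divided by 4, and Tagln was 7.26e-06 with DESeq2. When samples were left out, the log2 fold change ran from -1.32 to 0.53 in Actc1, -0.68 to 0.26 in Tagln, -0.11 to 0.82 in Acta2, -0.062 to 0.21 in Tpm1 and -0.81 to 0.53 in Tnnt3. The cause was not tested. Of 139 other values of the 10 genes, 116 kept direction and call, 17 changed sign and 6 passed the threshold only there. Depth limits Actc1 most, with 4 to 32 reads per sample.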
